A study of Mus musculus with 2 samples.

Results

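A set of 10 genes of MHC class I antigen presentation were followed through both expression tables of this study: H2-D1, H2-K1, B2m, Tap1, Tap2, Tapbp, Psmb8, Psmb9, Psmb10 and Erap1. Each was read by its exact feature name, and all 10 were found among the 35522 features listed. The genes were chosen with earlier results of these data known. The libraries came from neutrophils of Balb/C mice of 5 to 8 weeks, sorted from bone marrow as CD11b(+) cells with high Ly-6G and low or negative Ly-6C, and kept in medium with 10 ng/ml GM-CSF, a myeloid growth factor. PBS-treated neutrophils received PBS for 3 days. Exosome-treated neutrophils (labelled ELV-treated) received 20 μg/ml tumor exosomes for 3 days, which are vesicles released by CT26 cells, a murine colon carcinoma line, grown as stem-like spheres (SDCSCs). Each treatment is 1 library, so no value below has a replicate check, and it is not given whether animals were pooled.

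MHC class I molecules show peptides from inside a cell to CD8+ T cells. Proteasomes cut cytosolic proteins into peptides, the transporter TAP carries these into the endoplasmic reticulum, the aminopeptidase ERAP1 trims them, and tapasin holds empty class I molecules at TAP until a peptide is bound. The heavy chain reaches the surface only together with β2-microglobulin. Under interferon the catalytic subunits of the ordinary (constitutive) proteasome are replaced in newly made particles by the immunoproteasome subunits PSMB8, PSMB9 and PSMB10, and many genes of the pathway lie together in the MHC.

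Most of the genes sit on chromosome 17 (GRCm38 positions). H2-K1 lies at 33996017 to 34000347 on the minus strand and H2-D1 at 35262730 to 35267499 on the plus strand. Between them, Psmb9 (34181987 to 34187764, minus), Tap1 (34187553 to 34197225, plus), Psmb8 (34197721 to 34201454, plus) and Tap2 (34203527 to 34216321, plus) are neighbours, and Tapbp lies at 33915899 to 33929292 on the plus strand. B2m is on chromosome 2 (122147686 to 122153083, plus), Psmb10 on chromosome 8 (105935735 to 105938444, minus) and Erap1 on chromosome 13 (74639568 to 74693201, plus).

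Promoter windows of 300 bases, from 250 before to 50 after the start, were found in RefSeq (GRCm38.p6) for 9 of the 10 genes, all but Tap2. Those of the surface complex are printed because its light and heavy chains differed in opposite directions, that of Erap1 because its log2 fold change was the largest of the 10, and that of Tap1 because the window is shared with Psmb9. For H2-K1, which has a pair of listed starts, the window of the downstream one is shown. Capitals mark matches, on either strand, to the CRE core TGACG, the CCAAT box, the H2-K kappa B letters GGGGATTCC, the TATA box TATAAA and the IRF repeat GAAANNGAA. The GAS letters TTCNNNGAA were searched too. Among all 32851 promoter windows these letters were found in 20.8%, 37.4%, 0.25%, 13.6%, 8.56% and 8.30%, in the order named.
H2-K1, chr17:34000284-34000583, minus strand: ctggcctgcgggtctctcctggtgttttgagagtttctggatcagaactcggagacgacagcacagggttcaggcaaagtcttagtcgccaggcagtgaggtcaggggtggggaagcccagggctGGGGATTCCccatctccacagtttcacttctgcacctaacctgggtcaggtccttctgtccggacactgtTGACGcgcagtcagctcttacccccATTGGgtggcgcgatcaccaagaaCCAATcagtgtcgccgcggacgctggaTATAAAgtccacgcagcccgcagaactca
H2-D1, chr17:35262844-35263143, plus strand: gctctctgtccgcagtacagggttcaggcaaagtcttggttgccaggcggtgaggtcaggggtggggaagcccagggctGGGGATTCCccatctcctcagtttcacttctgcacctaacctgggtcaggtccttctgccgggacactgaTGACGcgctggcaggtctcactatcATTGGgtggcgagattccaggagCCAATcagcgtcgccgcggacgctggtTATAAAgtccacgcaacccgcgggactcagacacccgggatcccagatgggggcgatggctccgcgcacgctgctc
B2m, chr2:122147437-122147736, plus strand: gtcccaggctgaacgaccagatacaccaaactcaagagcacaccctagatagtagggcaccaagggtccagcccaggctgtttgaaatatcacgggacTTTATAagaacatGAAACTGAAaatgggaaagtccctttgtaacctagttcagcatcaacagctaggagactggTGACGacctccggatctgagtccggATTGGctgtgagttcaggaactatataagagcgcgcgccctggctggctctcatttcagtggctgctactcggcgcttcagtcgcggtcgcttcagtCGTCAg
Tap1, chr17:34187306-34187605, plus strand: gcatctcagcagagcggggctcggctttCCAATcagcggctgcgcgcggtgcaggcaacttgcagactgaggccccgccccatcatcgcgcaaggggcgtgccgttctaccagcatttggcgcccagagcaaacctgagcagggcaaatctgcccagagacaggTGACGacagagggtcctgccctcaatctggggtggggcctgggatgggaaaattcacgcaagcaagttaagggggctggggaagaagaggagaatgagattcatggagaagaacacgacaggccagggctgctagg
Erap1, chr13:74639603-74639902, plus strand: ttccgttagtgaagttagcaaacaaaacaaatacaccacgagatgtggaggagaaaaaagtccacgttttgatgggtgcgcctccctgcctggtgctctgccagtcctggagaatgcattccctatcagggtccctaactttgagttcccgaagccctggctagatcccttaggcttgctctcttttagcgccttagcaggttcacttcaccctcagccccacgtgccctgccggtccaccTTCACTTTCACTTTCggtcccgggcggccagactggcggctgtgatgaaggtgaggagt

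The windows of H2-K1 and H2-D1 had the same order of matches, a kappa B match, a CRE core, a pair of CCAAT boxes on opposite strands and a TATA box, and their longest identical stretch was 47 bases. The B2m window held an IRF repeat and 2 CRE cores, 1 on each strand, with a CCAAT box and a TATA box on the minus strand. It did not hold the H2-K kappa B letters, and other kappa B letters were not searched. In the Erap1 window there were 2 overlapping matches to the IRF repeat at the start and no match to the other letters. Tap1 and Psmb9 are read in opposite directions from 1 stretch, and 275 bases of their windows were common to both. CRE cores were in 5 of the 9 windows, CCAAT boxes in 6, the H2-K kappa B letters in 2 and TATA boxes in 4. The IRF repeat was in 2 (B2m and Erap1) and GAS in 1 (Psmb8). The IRF repeat was searched in 1 letter order only. The H2-K1 and H2-D1 windows hold tttcacttc, a similar repeat in another order that the searched letters do not match. The counts therefore do not show that such an element is absent. These matches describe letters and do not show that a factor was bound.

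The values were RPKM, reads scaled to exon length and to the mapped reads of the library, which allow levels of different genes to be compared within a library. From the smallest values in each table, the mapped reads were estimated at 65.97 M for PBS-treated and 79.13 M for exosome-treated neutrophils. A gene was kept at an RPKM of at least 0.25 in both libraries and called at a ratio of at least 2 or at most 0.5. All 10 genes were kept, among 9698 in all. The libraries were not centred on each other, and the median log2 fold change (exosome-treated over PBS-treated) of all genes kept was 0.53, falling from 0.86 among genes with a mean RPKM of 1 to 10 to 0.31 at 10 to 50 and 0.04 at 50 or more. Of the 12 neutrophil markers, all were detected in both libraries and 10 were at least 2-fold lower with exosomes, beside 5.62% of all genes. S100a8 and S100a9 alone held 21.2% of the summed RPKM in PBS and 8.13% with exosomes.

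The class I genes did not move as a block. B2m and Erap1 rose at least 2-fold with exosomes, none of the 10 fell 2-fold, 5 were higher and 5 were lower. The 2 called up among 10 stand beside 31.5% of all genes kept that were up and 5.62% that were down. Of all 9698 genes kept, 7079 were higher with exosomes and 2601 lower, whatever the size of the difference. These calls depended on the scaling: after the median of all genes was subtracted, 1634 of all genes were up and 1282 down, B2m was no longer called (0.66), H2-D1 (-1.11) and H2-K1 (-1.28) were down, and Erap1 stayed up. The median log2 fold change of the 10 was 0.05, and 6 of the 10 lay below the median of all genes. At a mean RPKM of 50 or more 1 of 4 was up (12.5% of all genes at that level were up and 11.4% down), at 10 to 50 none of 4 was up or down (18.4% and 5.15%), and at 1 to 10 it was 1 of 2 (44.8% up). Summed over the 10 genes, RPKM was 2974.98 with PBS and 2947.59 with exosomes, 0.83% and 0.85% of each table.

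**Figure D1:**
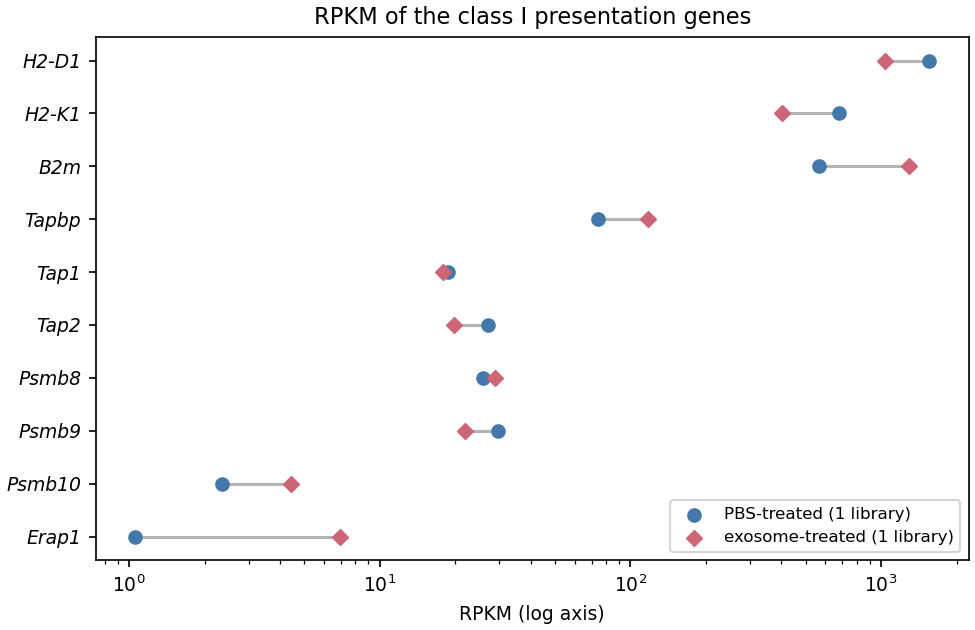
RPKM (log axis) of the 10 class I presentation genes in the PBS-treated library (circles) and the exosome-treated library (diamonds), joined by a line for each gene. H2-D1 and H2-K1 lie to the left with exosomes, B2m and Erap1 far to the right.

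The surface complex shifted in its parts. B2m, which encodes the light chain β2-microglobulin, rose from 564.56 to 1287.81 RPKM. Its log2 fold change was 1.19 (95% counting interval 1.17 to 1.21), where the interval covers the counting of reads and not the variation between cultures. The heavy chain gene H2-D1 was measured at 1554.43 RPKM in PBS and 1040.83 with exosomes (log2 fold change -0.58, counting interval -0.59 to -0.57). H2-K1, the other classical heavy chain, stood at 677.21 and 401.85 RPKM (log2 fold change -0.75, counting interval -0.77 to -0.74). Both heavy chains were thus lower with exosomes while their partner was higher, and neither reached the 2-fold limit as deposited. Few genes ranked above these 3, so the 500 genes nearest in level were mostly less abundant ones. Their median log2 fold change was 0.00 for each of the 3.

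The order of the members changed accordingly. In PBS-treated neutrophils H2-D1 ranked 14 among all features, H2-K1 43 and B2m 51. In exosome-treated neutrophils B2m ranked 17, H2-D1 23 and H2-K1 85, so B2m passed both heavy chains. Within a library, where the scaling between libraries cancels, B2m over the sum of H2-K1 and H2-D1 was 0.253 in PBS and 0.893 with exosomes, a 3.53-fold higher ratio. H2-D1 over H2-K1, in contrast, was 2.30 and 2.59. The B2m ratio was chosen after the values were seen.

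The class I heavy chains are a family of similar genes, which bears on the values of single members. Of the stretches of 50 bases in the longest H2-D1 transcript 14.3% also occurred in a transcript of another gene, and for H2-K1 the share was 8.1%, chiefly in each other and in genes of the H2-Q and H2-T groups. None of the 50-base stretches of B2m, Psmb8, Psmb9, Psmb10 or Erap1 was shared on the same strand. The opposite strand was not part of this count. There, exons of Psmb9 overlap Tap1, those of Erap1 overlap Cast, and 14.7% of the exon bases of Psmb8 overlap Gm20496. How reads that match several genes were counted is not given in the sources used here. Balb/C mice carry the d haplotype of the MHC and the mm10 reference is C57BL/6, so heavy chain reads may have been lost or moved between genes, and the size of this effect was not tested. Summed over the heavy chain genes found among the features, RPKM was 2768.82 in PBS and 1896.27 with exosomes (log2 change -0.55). The sum leaves out related gene models such as Gm7030. It also leaves out the heavy chain gene H2-L, which was sought but has no feature of that name.

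Among the other heavy chains, most of them nonclassical, 11 of 21 in the tables passed the RPKM limit, none was called (3 were down after median centring), and 7 were lower and 4 higher with exosomes. Their median log2 fold change was -0.09. H2-T23, which encodes the Qa-1 molecule recognised by NKG2A receptors, was at 164.99 and 102.76 RPKM. H2-Q2 was at 76.19 and 54.98 RPKM and H2-Q4 at 71.91 and 80.88 RPKM. The log2 fold changes ran from -0.83 to 0.85, so the spread within the family was wide, with the same uncertainty about shared reads.

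**Figure D2:**
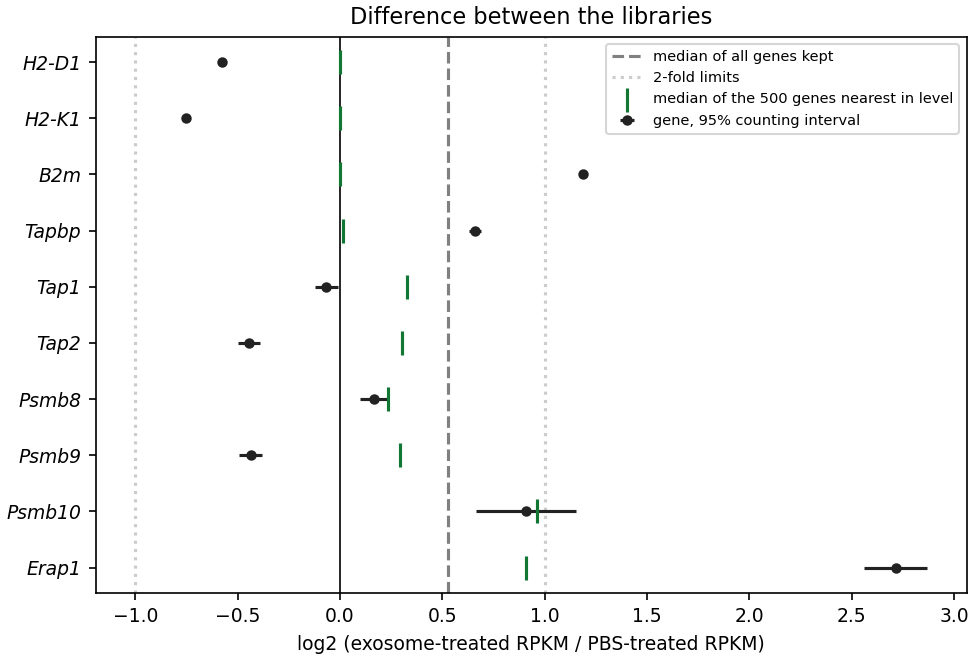
Log2 fold change of each gene (points) with its 95% counting interval (bars, hidden by the point where short), the median of all genes kept (dashed line, 0.53), the 2-fold limits (dotted lines) and the median of the 500 genes nearest in level (green ticks). B2m (1.19) and Erap1 (2.72) lie beyond the upper limit, and H2-D1, H2-K1, Tap2 and Psmb9 lie between -0.75 and -0.44.

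The peptide transporter was not higher with exosomes. Tap1 was at 18.71 RPKM in PBS and 17.87 with exosomes (log2 fold change -0.07, counting interval -0.12 to -0.01). Tap2, which encodes the other chain of the TAP heterodimer, was at 27.00 and 19.84 RPKM (log2 fold change -0.44, counting interval -0.50 to -0.39). Genes of their level had medians of 0.33 and 0.30. Tap1 over Tap2 within a library was 0.693 in PBS and 0.901 with exosomes.

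Tapbp, which encodes tapasin, was at 74.2 RPKM in PBS and 117.18 with exosomes. The log2 fold change of 0.66 (counting interval 0.63 to 0.69) was above the median of 0.02 among genes of its level and short of 2-fold. Tapasin transcripts over the sum of Tap1 and Tap2 were 1.62 in PBS and 3.11 with exosomes. Tapbpl, a tapasin relative that edits peptides away from TAP, was at 2.53 and 2.46 RPKM, a difference not detectable at this depth (counting interval -0.24 to 0.16).

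Of 11 chaperone and glycan-processing genes of class I loading 10 were higher with exosomes, beside 7079 of all 9698 genes kept. At least 2-fold higher were 4 of the 11, beside 31.5% of all genes. The count was 1 after median centring and 0 after centring on genes of the same level. Their median log2 fold change was 0.71, beside 0.53 for all genes. Hspa5 (BiP), the most abundant in PBS, was at 64.36 and 69.13 RPKM. Canx (calnexin, which folds new heavy chains) rose from 20.71 to 43.75 RPKM. Prkcsh, a subunit of glucosidase II, was at 3.54 and 11.02 RPKM. Calr (calreticulin) was at 47.61 and 68.92 RPKM and Pdia3 (ERp57) at 24.39 and 34.36. These genes serve glycoprotein folding in general, not class I alone.

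Erap1 had the largest change of the 10. It rose from 1.06 to 6.96 RPKM, a ratio of 6.57 (log2 fold change 2.72, counting interval 2.56 to 2.87), and its rank by log2 fold change was 249 of 9698. It went from the lowest of the 10 in PBS to the ninth with exosomes. Genes of its level had a median of 0.91. An estimated 395 and 3108 reads stood behind these values. On the opposite strand, exons of Cast, the calpastatin gene, overlap 11.5% of the exon bases of Erap1, and Cast was at 14.69 RPKM in PBS and 23.64 with exosomes. Whether the counting used strand is not given, and the part of Cast reads in the Erap1 values was not tested.

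Of the 9 other peptidases listed, 8 passed the RPKM limit, 4 rose at least 2-fold (2 after median centring) and none fell, beside 31.5% of all genes up and 44.8% at an RPKM of 1 to 10. Their median log2 fold change of 0.89 stands beside 0.53 for all genes and became 0.12 after centring on genes of the same level. Lap3, the cytosolic leucine aminopeptidase, rose from 0.27 to 1.80 RPKM and Ide, the insulin-degrading enzyme, from 0.55 to 2.92. Tpp2, the cytosolic tripeptidyl peptidase, was called too, at 8.90 and 19.53 RPKM. The 3 most abundant in PBS were not called: Lnpep (IRAP, which trims peptides in endosomes) was at 53.93 and 61.53 RPKM, Npepps (puromycin-sensitive aminopeptidase) at 46.12 and 54.50, and Nrdc (listed as Nrd1) at 44.19 and 50.96. Erap1 transcripts were 0.0197 of Lnpep transcripts in PBS and 0.113 with exosomes.

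The immunoproteasome genes did not move together. Psmb8, the counterpart of Psmb5, was at 25.75 RPKM in PBS and 28.89 with exosomes (log2 fold change 0.17, counting interval 0.10 to 0.23). Psmb9, the counterpart of Psmb6, was at 29.71 and 21.95 RPKM (log2 fold change -0.44, counting interval -0.49 to -0.38). Psmb10, the counterpart of Psmb7, was much lower at 2.35 and 4.41 RPKM (log2 fold change 0.91, counting interval 0.67 to 1.15, which includes the 2-fold limit). The difference in Psmb8 turned to -0.36, -0.38 and -0.07 under median centring, trimmed-mean scaling and centring on genes of the same level, and that in Psmb10 turned to -0.05 under the last of these. No direction is therefore given for Psmb8 or Psmb10. Although Psmb9 and Tap1 share a promoter stretch and 212 exon bases, their ratio within a library was 1.59 in PBS and 1.23 with exosomes.

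The constitutive subunits were higher with exosomes. Psmb5 rose from 11.83 to 30.74 RPKM (log2 fold change 1.38) and Psmb6 from 10.33 to 34.73 (1.75), and Psmb7 was at 24.17 and 44.10 RPKM (0.87). After median centring Psmb6 alone of these was called. Psmb7 shares 405 exon bases with Nek6, which was at 33.30 and 10.28 RPKM. Psmb8 over Psmb5 was therefore 2.18 in PBS and 0.940 with exosomes, and Psmb9 over Psmb6 was 2.88 and 0.632. In PBS-treated neutrophils these immunoproteasome transcripts exceeded their constitutive counterparts. In exosome-treated neutrophils Psmb9 was below Psmb6. Psmb8 was near Psmb5 there, with overlapping 95% counting intervals (28.04 to 29.76 and 29.47 to 32.06 RPKM). Levels of different genes also rest on exon lengths of an annotation that is not given. The log2 changes of these ratios were -1.21 and -2.19. Psmb10 over Psmb7 was 0.0972 and 0.100, a log2 change of 0.04 that became -0.15 with a pseudocount of 1. As sums, the 3 immunoproteasome genes over the 3 constitutive ones gave 1.25 in PBS and 0.504 with exosomes. In bulk RNA, fewer cells of a type and less RNA in each cell cannot be told apart, and this holds for every ratio here.

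**Figure D3:**
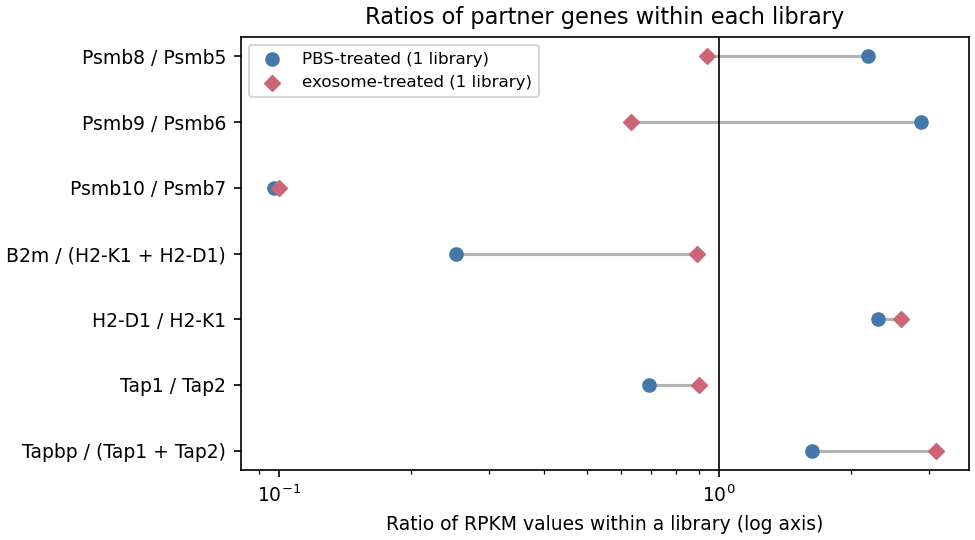
Ratios of RPKM between partner genes within the PBS-treated library (circles) and within the exosome-treated library (diamonds), on a log axis with a line at equal levels. Psmb9 over Psmb6 goes from above 1 to below 1 and Psmb8 over Psmb5 from above 1 to near 1 (0.940). Psmb10 over Psmb7 stays near 0.1, and B2m over the heavy chains goes from 0.253 to 0.893.

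The other proteasome genes kept were higher as deposited, and the regulatory particle was not examined. Of all 9698 genes kept 7079 were higher as deposited, 31.5% rose at least 2-fold, and 1634 did so after median centring. All 11 genes of the other core particle subunits were higher with exosomes, 5 of them at least 2-fold (1 after median centring). Their median log2 fold change was 0.99. Psmb3, Psma1 and Psma6, the most abundant in PBS, were at 38.63 and 90.55, 38.40 and 76.28, and 38.10 and 75.73 RPKM. Of the 9 activator and assembly genes kept 6 rose at least 2-fold (3 after median centring) and none fell. Psme1 and Psme2 encode the chains of PA28, the interferon-inducible cap, and were at 31.58 and 46.35 RPKM and at 19.89 and 48.10 RPKM. The activator genes Psme3 and Psme4 were not called, at 16.82 and 25.74 RPKM and at 10.53 and 11.50 RPKM. Pomp, the maturation factor needed by both kinds of particle, rose from 8.63 to 36.02 RPKM. The assembly chaperone genes Psmg2 and Psmg4 rose from 0.60 to 4.33 and from 0.67 to 3.43 RPKM. Psmb8 and Psmb9, at log2 fold changes of 0.17 and -0.44, lay below these 11 core particle genes, the lowest of which was at 0.67, and below the 3 constitutive subunits.

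**Figure D4:**
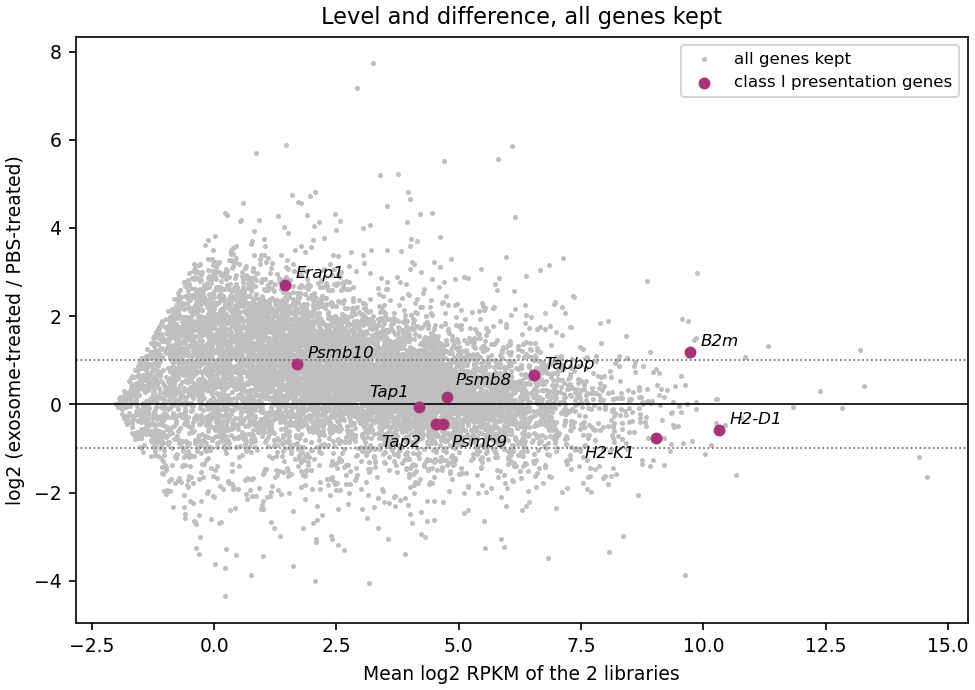
Log2 fold change against mean log2 RPKM for the 9698 genes kept (grey) and the 10 class I presentation genes (purple), with the 2-fold limits dotted. B2m lies above and H2-D1 and H2-K1 lie below the cloud's middle at high levels, Erap1 lies high among genes of low level, and the grey cloud is centred above 0 at low levels and near 0 at high levels.

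Regulators of the pathway differed in both directions. Of 19 transcription regulators 3 rose at least 2-fold and none fell, beside 31.5% of all genes up and 5.62% down. Their median log2 fold change was 0.55, beside 0.53 for all genes. Nlrc5, the transactivator of class I genes, was low at 0.66 and 1.08 RPKM. Irf1, an interferon-induced activator of class I genes, was at 19.55 RPKM in PBS and 15.04 with exosomes. The called genes were Nfkb1 (log2 fold change 1.51), Irf9 (1.25) and Relb (1.11), and the most abundant in PBS were Stat3 at 64.92 and 65.01 RPKM, Rela at 53.73 and 57.48, and Irf2 at 50.73 and 43.27. After median centring none of the 19 was called.

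Among genes of interferon receptors and their kinases, listed together with ligands and feedback inhibitors, 10 of 12 passed the RPKM limit. Of these 3 rose at least 2-fold, beside 31.5% of all genes: Ifngr1, Tyk2 and the feedback inhibitor Socs3. After median centring 1 was called, Socs3 (log2 fold change 1.71 as deposited), and Ifngr1 was not. Ifngr1, the ligand-binding chain of the interferon-γ receptor, rose from 47.60 to 113.81 RPKM, and Ifngr2 was at 84.58 and 125.42. Ifnar2 was at 115.55 and 102.11 RPKM, Jak1 at 145.84 and 111.39, and Jak2 at 26.98 and 32.09. Ifng itself was at 0.19 and 0.12 RPKM and Ifnb1 at 0.04 and 0.03, both below the limit, so transcripts of these ligands were hardly detected in either library.

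**Figure D5:**
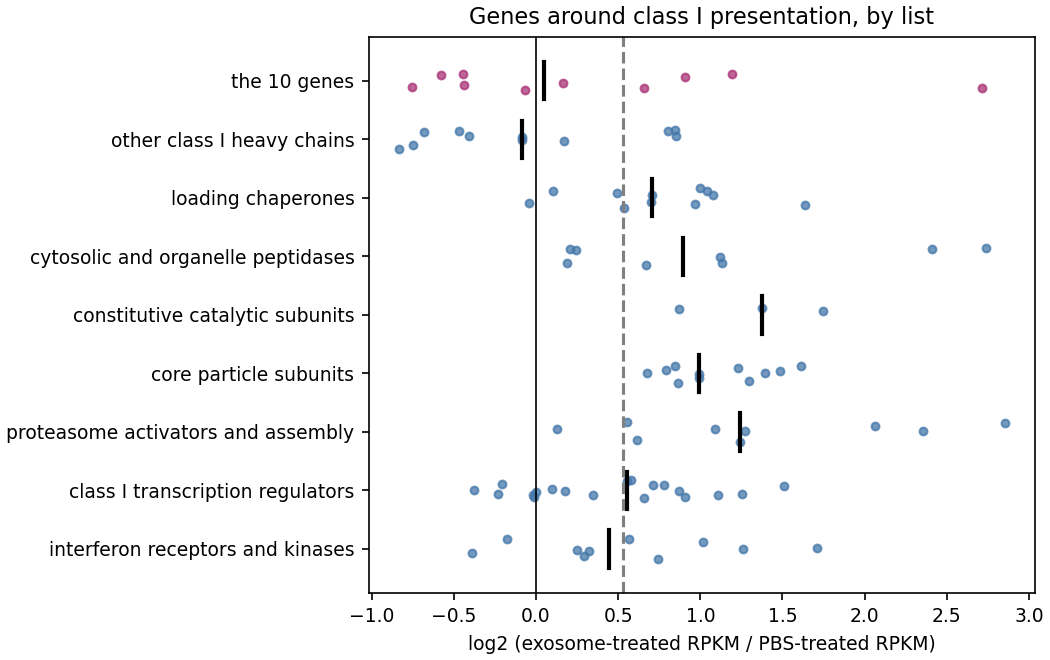
Log2 fold changes of the genes kept in each list (points, spread vertically at random) with the median of the list (black bar) and of all genes kept (dashed line, 0.53). The median of the 10 class I presentation genes (0.05) and of the other heavy chains (-0.09) lie near 0, those of the proteasome lists between 0.99 and 1.38.

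Marker transcripts of other cells also differed between the libraries, in both directions. Of all 9698 genes kept, 7079 were higher with exosomes and 2601 lower. All 5 B cell markers kept of 7 listed were lower with exosomes, with log2 fold changes of -0.79 to -0.50 and a summed level of 108.12 RPKM in PBS and 66.87 with exosomes. After median centring all 5 were at least 2-fold lower, beside 1282 of all 9698 genes kept. Cd79a was at 38.25 and 24.44 RPKM, and Ighm and Igkc were listed at 0 in both. Of the 12 dendritic cell markers 7 were kept and all 7 were lower. Below the limit, Xcr1 and Zbtb46 were higher with exosomes and the others lower. The 12 summed to 172.77 and 119.23 RPKM. Highest among them were Cd74 at 81.36 and 54.09 RPKM and the MHC class II gene H2-Aa at 41.94 and 32.08. Whether these transcripts came from dendritic cells or B cells was not tested. Of the 12 macrophage and monocyte markers 7 were kept, all 7 were higher and 5 were called up, beside 31.5% of all genes. The 12 summed to 165.48 and 478.57 RPKM. Adgre1 (listed as Emr1) rose from 20.91 to 151.51 RPKM, whereas C1qa was at 0.18 and 1.42 and Mertk at 0.04 and 0.48. Of the 10 T and NK cell markers 1 was kept, Cd3d at 56.44 and 7.02 RPKM, while Cd3e was at 0.06 and 0.04 and Trac was listed at 0 in both. Erythroid markers summed to 2.40 and 0.45 RPKM and markers of CT26 cells to 3.66 and 7.45 RPKM. Of the latter, Ascl2 alone was at 2.04 and 6.68 RPKM, Epcam, Krt18, Snai1 and Cdh1 were lower with exosomes, and Krt8 and Col1a1 were at 0 in both. The sort was made before culture, and the part of other cells in the class I values was not tested.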

How the data were processed

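TruSeq mRNA libraries of the 2 samples were sequenced by Illumina. With CLC Genomics Workbench the authors trimmed reads at a Phred score of 20, and they deposited RPKM, a single value per feature in each sample. The submitters' processing notes name mm10. The annotation, the treatment of multi-mapping reads and any scaling between samples are not given in the sources used here.

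RPKM was used as deposited, since no read counts were at hand. Mapped reads were estimated from values below 0.01, with the longest GENCODE M21 transcript of each symbol. The depth at which most of these values would stand for 1 read was taken. It fitted 177 of 918 values in PBS and 210 of 1064 with exosomes, so read numbers and counting intervals are approximate. Exact 95% Clopper-Pearson intervals of estimated reads cover counting error only. No test between treatments was possible with 1 library each. Alternatives were 4 scalings between libraries, a filter at an RPKM of 1, pseudocounts of 0.25 and 1, and a ratio of 4. Shared 50-base stretches were counted in GENCODE M21 transcripts, on the same strand only. Protein sequences were not used here. The genes and lists were chosen with earlier results of these data known. Named beyond the 10 genes were fixed regulators and partners, and of each list the genes changed at least 4-fold and the 3 highest in PBS; other names were chosen after their values were seen. A regulator that the rule names is not reported here. Python 3.11.15, pandas 2.3.3 and scipy 1.17.1 were used, and the scripts were tested on simulated data. The simulation used the same transcript lengths, so it does not test the fit of these lengths to the deposited values.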

Additional observations from a re-analysis of the deposited data

How the results depend on the processing

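Under median centring and under trimmed-mean scaling, 1 of the 10 genes was up (Erap1) and 2 were down (H2-D1 and H2-K1), the median log2 fold change of the 10 was -0.48 and -0.49, and 1634 and 1594 of all genes kept were up. Centring on genes of the same level left 2 up and none down, with a median of -0.23 and 1222 genes up. For H2-D1, H2-K1 and B2m the genes used for this centring were mostly less abundant ones. The directions of 8 of the 10 genes held under the 4 scalings between libraries, and those of Psmb8 and Psmb10 did not. The filter and the pseudocounts cannot change a direction. Scaling to equal RPKM sums shifted every gene by only 0.05, so it was a weak check too. Leaving out H2-K1 and H2-D1 moved the median of the genes to 0.41. An RPKM of at least 1 gave 1958 genes up and a pseudocount of 1 gave 1976, with B2m and Erap1 called up in each. With calls made at a ratio of 4, 1 of the 10 (Erap1) and 826 of all genes were up. Scaling cancels in ratios within a library. With a pseudocount of 1 their log2 changes were -1.15 for Psmb8 over Psmb5, -2.08 for Psmb9 over Psmb6 and -0.15 for Psmb10 over Psmb7, the last with the opposite sign to its value of 0.04. Without a pseudocount the summed subunits gave -1.31. B2m over all listed heavy chains, chosen after seeing the data, gave 1.74. No paired analysis was possible because each treatment holds 1 library. Reads were estimated from rounded RPKM, and variation between cultures could not be measured.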

Other observations

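Class I-like molecules, which share the fold and in part the light chain of class I but bind other ligands, had H60b as the most abundant in both libraries. Of 12 listed features 8 were kept, 2 rose at least 2-fold and none fell, beside 31.5% of all genes up. Fcgrt, the heavy chain of the neonatal Fc receptor and a partner of β2-microglobulin, rose from 0.25 to 1.09 RPKM, with a counting interval of 1.56 to 2.76 on the log2 scale. Hfe, which also pairs with β2-microglobulin and acts in iron sensing, was at 0.04 and 0.70 RPKM, below the limit in PBS. It was named after its values were seen. The NKG2D ligands H60b, Ulbp1 and Raet1d were at 15.11 and 14.71, 3.43 and 2.49, and 1.86 and 2.26 RPKM.

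Genes of export from the endoplasmic reticulum and of cross-presentation were mostly higher with exosomes, as were 7079 of all 9698 genes kept. Of the 13 kept, 3 rose at least 2-fold and none fell, beside 31.5% of all genes up. Their median log2 fold change of 0.55 was near that of all genes. The called genes were Sec13 and Sec31a, coat proteins of vesicles that leave the endoplasmic reticulum, at 10.15 and 28.37 RPKM and at 7.15 and 17.04 RPKM, and Sec22b at 11.31 and 23.05. Sec61g was at 0.16 and 2.27 RPKM, below the limit in PBS. The most abundant in PBS were Unc93b1 at 101.71 and 163.18 RPKM, Rab27a at 89.87 and 61.72 and Sec61b at 37.78 and 55.35. After median centring none of these genes was up 2-fold and 1, Rab27a, was down.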
